A study of Mus musculus with 16 samples.

Results

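Crypt cells of the mouse duodenum that carried high signal of the green Lgr5-EGFP stem cell reporter (gate G) were compared with crypt cells low for that reporter (gate NEG). Both gates were low for the red transgene, so neither was selected for oncogene expression. The comparison used 6 of the 16 arrays of the study, 3 of G cells and 3 of NEG cells, and took its genes by a fixed rule, as named probes above the array median on at least 2 of the 6 arrays. This left 9365 genes, each read by its brightest such probe. The G and NEG cells came from the same 3 mice of a line with an inducible TdTomato-BRAF(V600K) transgene, on a mixed B6/129S6 background and 8 to 12 weeks old. All of these mice had drunk doxycycline at 4 mg/ml in 1% sucrose for 24 h, so the NEG cells came from induced animals too and are no untreated control. The other arrays held the red-high gates of these mice (RG, high for both colours, and R, low for green, 3 arrays each) and the G and RG gates of 2 mice with a TdTomato-luciferase transgene (2 arrays each). Cells were sorted by fluorescence alone, per the labels, so each array reads a mixture of crypt cells, and the driver of the transgene and the type of Lgr5-EGFP allele are not given in the sources used here. In such bulk samples, fewer cells of a type and less RNA per cell cannot be told apart.

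Intestinal crypts hold Lgr5-positive stem cells at their base, wedged between Paneth cells, which secrete antimicrobial peptides. Wnt signals keep the stem cells dividing, Notch signals hold back the secretory fate, and their progeny leave the base to become absorptive enterocytes or goblet, enteroendocrine and tuft cells. The epithelium also houses lymphocytes, above all cytotoxic T cells that sit between the epithelial cells and are held there by the integrin CD103, the product of Itgae together with Itgb7. EGFP made under Lgr5 control marks the stem cells, and daughter cells inherit some of the protein.

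Values are array intensities in arbitrary units, and changes are differences of log2 intensity, G minus NEG, fitted over the 3 mice with limma. A gene was called when its Benjamini-Hochberg adjusted p was under 0.05. Of the 9365 genes, 75 (0.801%) were called higher in G cells and 541 (5.78%) lower, together 6.58%. A gene whose mean in a gate lay below the array median, or that lay at or below it on each array there, is called dim in that gate, and its difference is given as a bound ("at least N-fold"). Each called gene differed in 1 direction in 3 of 3 mice. The differences were lopsided in size as well as in number. Among the genes called higher, the log2 difference ran only from 0.48 to 0.90 with a median of 0.55, and 0 passed 2-fold. Among those called lower the median was -0.94, with 250 genes more than 2-fold and 67 more than 4-fold lower as fitted, and 231 of the 541 were dim in G cells. Over all genes tested the median was 0.04. Without mouse 2 there were 24 genes higher and 332 lower, and without mouse 3 there were 12 higher and 405 lower. A fit that ignored which arrays shared a mouse called 10 genes higher (0.107%) and 327 lower (3.49%), or 3.6% in either direction. With the 12 BRAF arrays fitted together and the mouse kept as a block, 10 were higher (0.107%) and 299 lower (3.19%), or 3.3%.

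**Figure D1:**
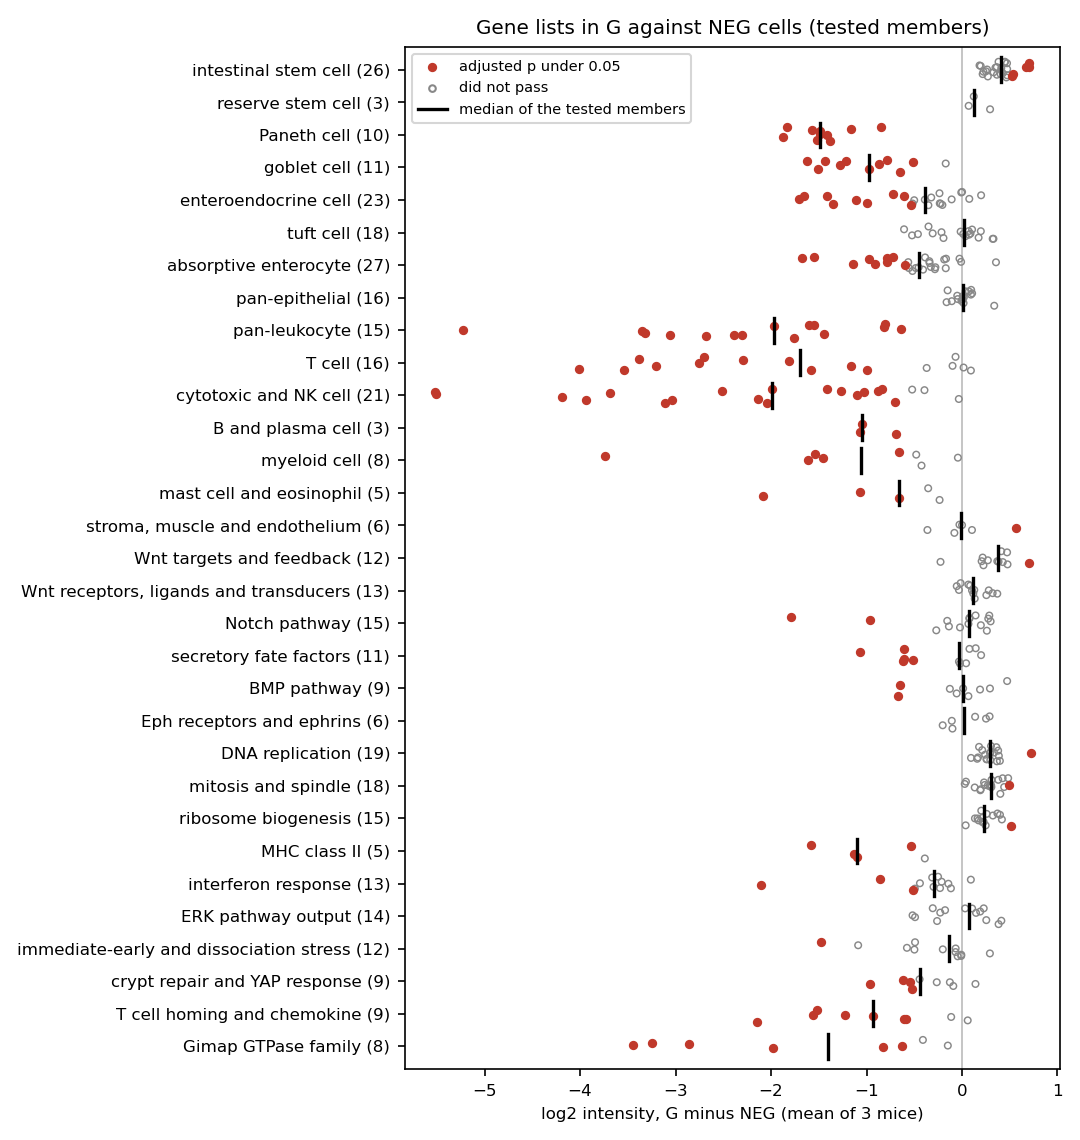
Log2 intensity difference between G and NEG cells (x axis, mean of 3 mice) for the tested members of each gene list, with the number of tested members in brackets. Filled red points passed an adjusted p of 0.05, open points did not, and bars are medians of the tested members. The stem cell, replication, mitosis and ribosome biogenesis lists lie to the right of 0, at medians of 0.41, 0.30, 0.30 and 0.23. The Paneth, goblet and leukocyte lists lie to the left, and the points of genes dim in G cells are fitted values, not exact sizes.

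The reporter gene itself was the first check of the gates. Lgr5, which encodes a receptor for R-spondins and defines the stem cells, read 343.8, 243.6 and 595.9 in G cells, against 166.5, 192.3 and 362.7 in NEG cells of mice 1, 2 and 3. It was higher in G in each mouse, but the groups overlapped, because the NEG cells of mouse 3 read above the G cells of mice 1 and 2. The log2 difference was 0.70 ± 0.15 (SE, n = 3 mice, adjusted p = 0.0155), a 1.63-fold difference. Since the gates were set on a reporter of this gene, its level checks the sort and is no finding about it. The call was lost without mouse 1 or without mouse 3, and it passed in 5 of 13 alternative analyses, with an adjusted p of 0.393 in the fit that ignored the shared mice. Of the other gates of the same mice, RG cells had 182.0, 181.4 and 168.3 units of Lgr5 and R cells had 165.2, 120.5 and 94.9. G cells of the luciferase line had 538.2 and 375.4. The reporter-low NEG cells of mice 2 and 3 therefore read above the highest reporter-high RG array of the same line.

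Of the 30 genes of the Lgr5 stem cell list 26 were tested, and 5 of them rose in G cells (Lgr5, Igfbp4, Gkn3, Kcne3 and Aqp4) against 0.801% of all genes, while 0 fell. The differences of all 26 members lay above 0 in the mean of 3 mice, against 5408 of the 9365 genes, and 19 of 26 had an unadjusted p under 0.05. The list median was 0.41. These members had been gathered with the study's earlier results known, so their count is a description. Lgr5 is among the 5, although the gates were set on its reporter.

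Igfbp4, a secreted binding protein of insulin-like growth factors, read 567.4, 905.3 and 738.6 in G cells, against 400.6, 521.5 and 417.8 in NEG cells. The groups did not overlap, and the log2 difference was 0.71 ± 0.14 (adjusted p = 0.0063). A further probe of Igfbp4 read a difference of 0.33. Kcne3, a potassium channel subunit of crypt cells, also kept the gates apart, at 737.3, 818.2 and 899.4 in G cells, against 512.6, 533.1 and 653.5 in NEG cells (log2 0.53 ± 0.13, adjusted p = 0.0284). Gkn3, a gastrokine used as a stem cell marker in mice, was low in both gates of mouse 1, with 290.8, 465.1 and 501.5 in G cells, against 155.7, 300.3 and 359.4 in NEG cells (log2 0.67 ± 0.14, adjusted p = 0.0104). Its groups overlapped although the difference had the same sign in each mouse. Aqp4, a water channel, overlapped too and passed narrowly, at 805.0, 615.4 and 731.1 in G cells, against 651.3, 430.6 and 439.4 in NEG cells (log2 0.52 ± 0.14, adjusted p = 0.0461). None of these 4 calls held in the fit without the mouse block, where Igfbp4 came closest at an adjusted p of 0.0814, and 0 of the 26 members were called by limma there or with the 12 BRAF arrays fitted together. Each call was lost without mouse 2, those of Igfbp4 and Aqp4 also without mouse 3, that of Gkn3 also without mouse 1, and that of Kcne3 without any 1 of the 3 mice.

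**Figure D2:**
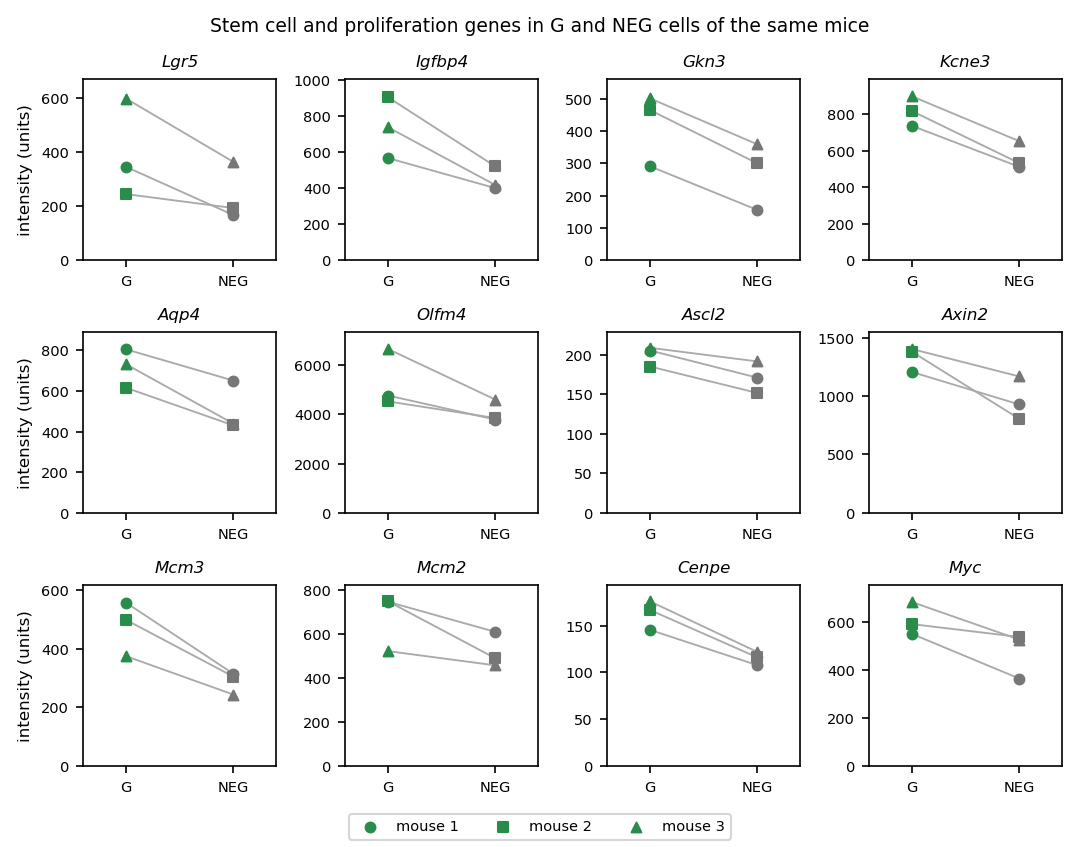
Intensity in G and NEG cells (y axis, arbitrary units from 0) for 12 stem cell and proliferation genes, with lines joining the 2 gates of each mouse. The lines slope down to NEG in each panel, and the 2 gates differ by less than 2-fold in the mean of 3 mice. Lgr5, Igfbp4, Gkn3, Kcne3, Aqp4, Mcm3 and Cenpe passed the test. Olfm4, Ascl2, Axin2, Mcm2 and Myc did not.

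Stem cell genes that carry much of the textbook signature did not pass. Olfm4, an abundant secreted glycoprotein of stem cells, read 4768.3, 4528.0 and 6657.6 in G cells, against 3790.8, 3855.5 and 4606.3 in NEG cells, with a log2 difference of 0.36 ± 0.13 (adjusted p = 0.145). Ascl2, the Wnt-driven transcription factor of stem cells, read 205.4, 185.1 and 208.8 in G cells, against 171.1, 151.7 and 191.6 in NEG cells (log2 0.22 ± 0.13, adjusted p = 0.367). Both were measurable in NEG cells as well. The summed intensity of the 26 stem cell genes was 38272, 34940 and 43343 in G cells, against 28106, 27035 and 31581 in NEG cells. In the red gates it was 30791, 24878 and 24109 in RG cells, against 14825, 15532 and 12710 in R cells. The NEG sums thus overlapped those of the reporter-high RG cells and stood above those of R cells. The reserve stem cell list had 3 tested members with a median of 0.12 and 0 calls by limma, 1 of them with an unadjusted p under 0.05.

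Wnt targets followed the stem cell list, with which they share 8 tested genes. Of 12 tested, 1 rose, against 0.801% of all genes, 0 fell, 11 lay above 0, and the median was 0.38. The call was that of Lgr5, on whose reporter the gates were set. Axin2, the feedback inhibitor read out as Wnt activity, had 1204.8, 1377.4 and 1401.6 in G cells, against 927.5, 804.7 and 1167.3 in NEG cells. Its groups did not overlap, but the log2 difference of 0.47 ± 0.14 missed the threshold (adjusted p = 0.0795). Myc, a growth-promoting transcription factor, read 549.7, 590.9 and 683.0 in G cells, against 363.6, 537.2 and 526.4 in NEG cells (log2 0.37 ± 0.14, adjusted p = 0.157). Of 13 Wnt receptors, ligands and transducers, 0 were called by limma and 2 had an unadjusted p under 0.05, with a median of 0.12.

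Proliferation genes were shifted slightly towards G cells. Of 19 DNA replication genes, 1 rose (Mcm3) and 0 fell, and of 18 mitosis and spindle genes, 1 rose (Cenpe) and 0 fell. Over all genes, 0.801% were called higher. The medians were 0.30 for each list, and the 37 members lay above 0 without exception. At an unadjusted p under 0.05, 9 replication genes and 10 mitosis genes were higher and 0 were lower, against 863 higher and 1048 lower of all genes tested. Mcm3, a subunit of the replicative helicase, read 557.1, 498.3 and 374.2 in G cells, against 314.3, 304.6 and 243.1 in NEG cells, so that the lowest G array stood above the highest NEG array. Its log2 difference was 0.72 ± 0.13 (adjusted p = 0.00436), a 1.65-fold difference. It held with each mouse left out in turn, but had an adjusted p of 0.0596 without the mouse block, 0.209 with the 12 BRAF arrays and 0.434 with all 16. In these 3 fits 0 of the replication, mitosis and ribosome biogenesis genes were called by limma. Mcm2, another subunit of the same helicase, had 745.5, 747.1 and 520.8 in G cells, against 608.5, 488.7 and 456.2 in NEG cells and did not pass (log2 0.37 ± 0.14, adjusted p = 0.158). Cenpe, a kinetochore motor, read 145.7, 167.0 and 176.3 in G cells, against 107.8, 116.3 and 122.1 in NEG cells, was dim in NEG cells and at least 1.35-fold higher in G (adjusted p = 0.041), a call lost without any 1 of the 3 mice. Of 15 ribosome biogenesis genes, 1 rose (Nhp2, a box H/ACA ribonucleoprotein subunit) and 15 lay above 0, with a median of 0.23. Nhp2 read 1018.4, 1069.8 and 897.5 in G cells, against 715.4, 744.9 and 635.1 in NEG cells (log2 0.51 ± 0.13, adjusted p = 0.0349), and this call too was lost without any 1 mouse.

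The largest increases lay partly outside these lists. Rgcc, a regulator of cell cycle progression, read 453.8, 796.6 and 587.1 in G cells, against 267.2, 433.8 and 295.2 in NEG cells, a 1.84-fold difference (log2 0.88 ± 0.13, adjusted p = 0.00106). Its G array of mouse 1 barely cleared the highest NEG array. Car12, a membrane-bound carbonic anhydrase, read 416.9, 514.4 and 494.3 in G cells, against 231.4, 314.6 and 289.8 in NEG cells (log2 0.78 ± 0.13, adjusted p = 0.00233). The groups were well apart, and Car12 was the one gene of the 75 whose call passed in each of its 13 alternative analyses. Skp2, the substrate receptor of a ubiquitin ligase that degrades the cell cycle inhibitor p27, had 858.7, 841.9 and 681.4 in G cells, against 524.2, 487.8 and 414.9 in NEG cells (log2 0.74 ± 0.13, adjusted p = 0.00321). It kept the groups apart, although 2 further probes of Skp2 read differences of only 0.10 and 0.18. Ces1d, a carboxylesterase, read 537.2, 336.1 and 1181.4 in G cells, against 224.0, 273.3 and 600.5 in NEG cells (log2 0.85 ± 0.17, adjusted p = 0.0104), with overlapping groups and a level that varied more between mice than between gates. Coq4, which acts in coenzyme Q synthesis, had the highest log2 difference, 0.90 ± 0.14 (adjusted p = 0.00127), from 200.7, 255.6 and 255.3 in G cells, against 106.9, 159.2 and 118.8 in NEG cells, and lay above the array median on 1 of 3 NEG arrays. Ercc6l2, a helicase-like protein of DNA repair, read 278.2, 263.5 and 310.6 in G cells, against 133.9, 167.5 and 210.3 in NEG cells (log2 0.76 ± 0.14, adjusted p = 0.00563). Kank1, a cytoskeletal adaptor, read 220.1, 166.4 and 208.4 in G cells, against 111.8, 115.7 and 124.3 in NEG cells, was dim in NEG cells and at least 1.63-fold higher in G (adjusted p = 0.00512). The calls of Ces1d and Kank1 were lost without mouse 3, and that of Ercc6l2 without mouse 2. The Ces1d call passed in only 6 of 13 alternative analyses, with an adjusted p of 0.428 by limma without the mouse block. A further probe of Coq4 read a difference of only 0.29, and a further probe of Ercc6l2 read 0.41. The Coq4 call was also lost among genes above the array median on all 6 arrays.

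Paneth cell genes were lower in G cells. Of the 20 genes of the list 10 were tested and these 10 fell, against 5.78% of all genes, with a median of -1.48 and medians of -1.36, -1.56 and -1.41 in mice 1, 2 and 3. Lyz1, the lysozyme of Paneth cells, read 1523.6, 5150.0 and 4958.4 in G cells, against 5150.0, 15043.9 and 10954.3 in NEG cells, with a log2 difference of -1.48 ± 0.15 (adjusted p = 3.77e-05). The G cells of mice 2 and 3 read about as much as the NEG cells of mouse 1, so the groups overlapped, although Lyz1 was lower in G in each mouse, 2.79-fold in the mean. Defa22, an alpha-defensin, showed the same split between mice, with 171.8, 1570.2 and 1491.0 in G cells, against 667.8, 5778.2 and 5111.6 in NEG cells (log2 -1.87 ± 0.13, adjusted p = 1.68e-06). Its probe may also read near-identical defensin copies, so the gene identity is uncertain. Ang4, an antimicrobial ribonuclease, kept the groups apart, at 304.8, 718.5 and 458.4 in G cells, against 738.8, 1980.3 and 1791.0 in NEG cells (log2 -1.57 ± 0.15, adjusted p = 3.12e-05). Itln1, an intelectin lectin, read 2002.9, 6533.0 and 6916.4 in G cells, against 5468.3, 20617.5 and 18750.3 in NEG cells (log2 -1.52 ± 0.13, adjusted p = 1.15e-05). Mouse 1 was low for this list in both gates. The summed intensity was 7215, 34499 and 26041 in G cells, against 26091, 77776 and 68984 in NEG cells. With mouse left out of the model, 1 of the 10 Paneth genes was called, and with the 12 BRAF arrays fitted together 3 were.

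Goblet cell genes were lower in G cells with less spread between mice. Of the 15 genes of the list 11 were tested, of which 10 fell, against 5.78% of all genes, and 0 rose, with a median of -0.98. Zg16, a mucus lectin, read 1543.3, 2604.5 and 2858.0 in G cells, against 5131.9, 6916.4 and 7409.9 in NEG cells, a 2.84-fold lower level in G with no overlap (log2 -1.51 ± 0.14, adjusted p = 1.65e-05). Clca1, a secreted protease of goblet cells, had 925.4, 870.6 and 1547.9 in G cells, against 2594.1, 2514.0 and 3794.4 in NEG cells (log2 -1.44 ± 0.13, adjusted p = 1.82e-05). Bcas1 read 243.8, 319.0 and 530.8 in G cells, against 629.6, 1385.9 and 1386.9 in NEG cells (log2 -1.62 ± 0.16, adjusted p = 3.93e-05). Guca2a, the hormone guanylin, read 1028.5, 1468.9 and 2002.9 in G cells, against 2580.1, 3426.9 and 4308.6 in NEG cells (log2 -1.22 ± 0.13, adjusted p = 7.19e-05). All 4 kept the lowest NEG array above the highest G array and passed in each of their 13 alternative analyses. Still, G cells held clear goblet signal, with Zg16 never below 1543.3 units where array medians were 118.9 to 119.9. In the fit without the mouse block 6 of the 11 fell. Muc2 is not analysed here.

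Enteroendocrine genes were lower in G cells in part. Of 29 genes 23 were tested, of which 9 fell, against 5.78% of all genes, and 0 rose, with a list median of -0.39. Of the 9, 7 encode hormones or their precursors. Sct, secretin, read 1972.1, 2410.0 and 1944.9 in G cells, against 5084.7, 6422.7 and 4682.4 in NEG cells (log2 -1.35 ± 0.13, adjusted p = 2.68e-05). Sst, somatostatin, had 306.9, 520.8 and 305.3 in G cells, against 923.1, 1227.8 and 815.7 in NEG cells (log2 -1.41 ± 0.14, adjusted p = 2.54e-05). Gip, the glucose-dependent insulinotropic peptide, read 1431.5, 2172.3 and 1612.2 in G cells, against 3161.6, 4319.8 and 3693.7 in NEG cells (log2 -1.11 ± 0.13, adjusted p = 0.000149). In these 3 hormone genes the groups did not overlap. Pyy, peptide YY, read 100.3, 152.7 and 75.0 in G cells, against 226.3, 555.2 and 282.4 in NEG cells, was dim in G cells and at least 2.53-fold lower there (adjusted p = 3.12e-05). Chga, the granule protein chromogranin A, read 173.2, 490.8 and 798.2 in G cells, against 473.9, 962.4 and 1173.4 in NEG cells and overlapped (log2 -0.99 ± 0.17, adjusted p = 0.00241). Neurog3, the transcription factor that starts the enteroendocrine lineage, did not pass (log2 0.20 ± 0.14, adjusted p = 0.478), and neither did Rfx6 (log2 0.08 ± 0.16, adjusted p = 0.836). The Chga call was lost without mouse 2. Of the 23 genes, 5 fell in the fit without the mouse block and 2 with the 12 BRAF arrays.

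Enterocyte genes were lower in G cells as well. Of 33 genes 27 were tested, of which 9 fell, against 5.78% of all genes, and 0 rose. Of the 27, 26 lay below 0, and the median was -0.45. Sis, sucrase-isomaltase, read 351.3, 251.2 and 496.2 in G cells, against 1381.4, 548.7 and 1443.8 in NEG cells (log2 -1.55 ± 0.16, adjusted p = 5.89e-05). Enpep, a brush border aminopeptidase, read 144.8, 129.5 and 214.3 in G cells, against 506.3, 359.7 and 712.9 in NEG cells (log2 -1.67 ± 0.14, adjusted p = 6.23e-06). Rbp2, a retinol-binding protein, had 913.2, 1300.2 and 1447.9 in G cells, against 2786.1, 2727.7 and 2448.9 in NEG cells (log2 -1.15 ± 0.16, adjusted p = 0.000751). The lowest NEG array exceeded the highest G array for each of these 3. Fabp1, a fatty acid-binding protein, read 132.0, 191.0 and 216.2 in G cells, against 278.1, 359.6 and 278.6 in NEG cells (log2 -0.78 ± 0.16, adjusted p = 0.00812), and Krt20, a keratin of villus cells, read 428.3, 1038.0 and 607.3 in G cells, against 1008.4, 1638.0 and 1226.0 in NEG cells (log2 -0.97 ± 0.15, adjusted p = 0.00111). Dpp4, a brush border peptidase, was the member that lay above 0, at 0.36 ± 0.14 (adjusted p = 0.181). The Fabp1 call was lost without mouse 2. Of the 27 genes, 3 fell in the fit without the mouse block and 2 with the 12 BRAF arrays. Alpi is not analysed here.

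**Figure D3:**
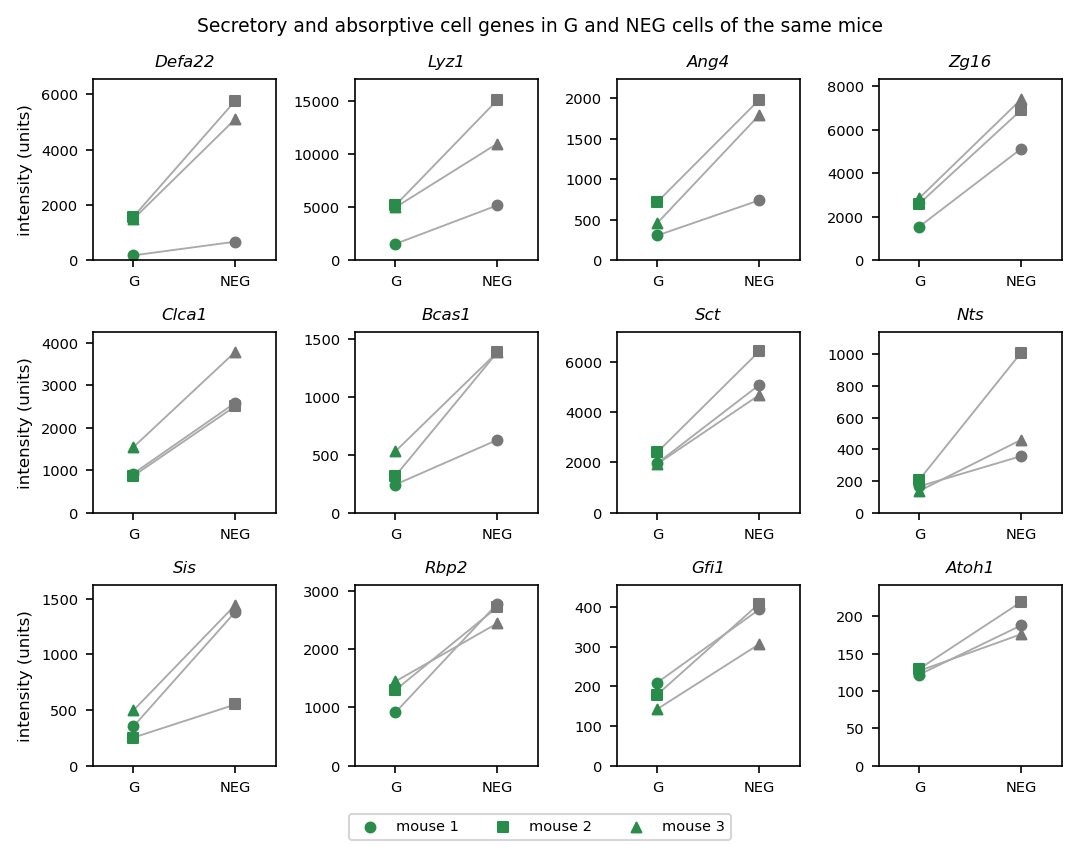
Intensity in G and NEG cells (y axis, arbitrary units from 0) for 12 Paneth, goblet, enteroendocrine, enterocyte and secretory fate genes, with lines joining the 2 gates of each mouse. The lines climb to NEG in each panel. Mouse 1 is lowest in both gates for Defa22, Lyz1 and Ang4.

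The regulators of the secretory fate were lower in part. Of 11 tested, 5 fell (Gfi1, Atoh1, Neurod1, Klf4 and Spdef), against 5.78% of all genes, and 0 rose. Gfi1, a repressor needed for Paneth and goblet cells, read 209.5, 179.2 and 142.6 in G cells, against 394.0, 408.8 and 306.5 in NEG cells, without overlap (log2 -1.07 ± 0.13, adjusted p = 0.000232). Atoh1, which commits cells to the secretory lineage, stood near the array median in G, at 121.8, 129.5 and 126.8 in G cells, against 187.7, 219.1 and 175.9 in NEG cells (log2 -0.62 ± 0.13, adjusted p = 0.0139). The calls of Atoh1, Klf4 and Spdef were lost without mouse 2 or without mouse 3, and that of Neurod1 without mouse 2. In the fit without the mouse block, and with the 12 BRAF arrays, 2 of the 11 fell. Of the Notch pathway, 15 genes were tested, 0 rose and 2 fell, against 5.78% of all genes lower. The 2 were the ubiquitin ligase gene Dtx1 and the fringe glycosyltransferase gene Mfng. Hes1, the Notch effector that represses Atoh1, read 244.8, 198.1 and 197.5 in G cells, against 199.2, 162.9 and 219.6 in NEG cells (log2 0.14 ± 0.14, adjusted p = 0.627). Dll1, a Notch ligand of secretory cells, was dim in both gates, with a log2 difference of -0.02 ± 0.13 (adjusted p = 0.954). Dtx1 read 87.9, 86.4 and 80.6 in G cells, against 289.9, 350.3 and 247.8 in NEG cells, was dim in G and at least 2.45-fold lower there (adjusted p = 4.17e-06). Mfng read 89.3, 135.7 and 104.6 in G cells, against 165.6, 303.2 and 185.7 in NEG cells, at least 1.69-fold lower (adjusted p = 0.000644). In the BMP list of 9 genes, 2 fell, against 5.78% of all genes. They were the transcription inhibitors Id2 (log2 -0.67 ± 0.14, adjusted p = 0.00851) and Id4 (log2 -0.65 ± 0.16, adjusted p = 0.0321). Both calls were lost without mouse 2, and that of Id4 also without mouse 1.

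Several epithelial lists gave no calls. Of 16 pan-epithelial genes 0 were called by limma and 1 had an unadjusted p under 0.05, with a median of 0.01. Cdh1, E-cadherin, read 14505.5, 18750.3 and 20617.5 in G cells, against 18117.0, 16415.1 and 18117.0 in NEG cells, a log2 difference of 0.02 ± 0.15 (adjusted p = 0.963) whose sign turned under other settings. Summed over that list, the intensity was 44442, 49312 and 54826 in G cells, against 49158, 47160 and 50226 in NEG cells, so the epithelial signal of the gates overlapped. Of 18 tuft cell genes, 0 were called, with 1 higher and 5 lower at an unadjusted p under 0.05 and a median of 0.03. Dclk1, the kinase used to mark tuft cells, read 339.6, 285.4 and 230.1 in G cells, against 427.2, 481.7 and 224.7 in NEG cells (log2 -0.35 ± 0.16, adjusted p = 0.242). Of 14 genes that report output of the ERK pathway, through which BRAF acts, 0 were called, 2 were higher and 2 lower at an unadjusted p under 0.05, and the median was 0.07. Dusp6, an ERK phosphatase induced by the pathway, read 1180.7, 2457.3 and 2528.8 in G cells, against 2148.9, 3235.7 and 3096.4 in NEG cells (log2 -0.52 ± 0.15, adjusted p = 0.0609). Of 6 Eph receptor and ephrin genes 0 were called, with 1 higher at an unadjusted p under 0.05. Efnb1, an ephrin whose receptors position crypt cells, read 296.9, 300.4 and 239.8 in G cells, against 295.0, 248.9 and 363.7 in NEG cells (log2 -0.11 ± 0.17, adjusted p = 0.778), and its sign turned without mouse 3. Braf, Epcam, Ephb2, Smoc2 and Ccnb1 are not analysed here.

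Genes of leukocytes gave the largest differences of the comparison. Of the 52 genes tested in the pan-leukocyte, T cell and cytotoxic lists, 44 fell in G cells and 0 rose, against 5.78% of all genes lower. By list, 15 of 15 pan-leukocyte, 11 of 16 T cell and 18 of 21 cytotoxic and NK cell genes fell, with medians of -1.97, -1.70 and -1.99. With dim genes held at their bound, the medians were -1.59, -1.15 and -1.47. The 10 genes with the lowest fitted differences in the whole comparison, 8 of them dim in G, were Ccl5, Gzma, Rgs1, Laptm5, Lat2, Ccl4, Itgae, Cd200r2, Tyrobp and Arap3. Of the 52 tested genes, 35 never exceeded the median of a G array and so entered the test through NEG arrays. The counts of these lists are therefore descriptions and give no support of their own.

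Ccl5, a chemokine of activated T cells, read 99.3, 117.3 and 108.1 in G cells, against 4112.4, 6732.7 and 4422.2 in NEG cells. It was dim in G cells, at least 41.5-fold lower there (adjusted p = 3.21e-10), and among the brighter genes on NEG arrays. Gzma, the protease granzyme A of cytotoxic granules, read 88.1, 126.6 and 73.9 in G cells, against 3734.6, 5073.2 and 4125.7 in NEG cells, at least 35.1-fold lower (adjusted p = 3.21e-10). Rgs1, which damps chemokine receptor signals in lymphocytes, read 79.2, 70.7 and 70.6 in G cells, against 2497.5, 4003.0 and 3488.7 in NEG cells, at least 27.3-fold lower (adjusted p = 1.34e-09). For each of these 3 genes the lowest NEG array stood more than an order of magnitude above the highest G array. Laptm5, a lysosomal membrane protein of blood cells, read 109.5, 153.1 and 134.2 in G cells, against 4353.5, 6285.6 and 4319.8 in NEG cells (log2 -5.23 ± 0.14, adjusted p = 3.21e-10), and exceeded the median of 2 of the 3 G arrays. Itgae, the alpha chain of CD103, read 111.3, 78.4 and 123.7 in G cells, against 1392.6, 2047.6 and 1577.3 in NEG cells, at least 13.7-fold lower (adjusted p = 6.93e-08). Its 5 other probes agreed in sign, with differences from -3.98 to -0.92. Ptprc, the pan-leukocyte phosphatase CD45, read 87.1, 88.7 and 125.7 in G cells, against 614.5, 1234.2 and 736.3 in NEG cells, at least 6.78-fold lower (adjusted p = 1.11e-06).

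The T cell receptor complex was dim in G cells throughout. Cd3e read 83.3, 72.6 and 79.7 in G cells, against 671.5, 838.6 and 672.6 in NEG cells, at least 6.05-fold lower (adjusted p = 4.35e-08). Cd3d and Cd3g were at least 9.02-fold and 6.46-fold lower in G (adjusted p = 1.97e-08 and 4.59e-08). Cd8b1, the beta chain of the CD8 co-receptor, read 96.0, 80.8 and 90.4 in G cells, against 184.5, 317.8 and 320.8 in NEG cells, at least 2.22-fold lower (adjusted p = 0.000138). The tested probe of Cd8a, its partner chain, read 200.7, 153.3 and 162.4 in G cells, against 167.0, 185.0 and 156.3 in NEG cells and did not differ beyond its error (log2 0.02 ± 0.14, adjusted p = 0.968). Cd8a, read by a single probe, thus did not share the low level of Cd8b1 and the CD3 genes in G cells. Cd4 did not pass the filter on dim probes, and neither did Col1a1 of the stromal list. Of 9 tested genes of a list of T cell homing genes and chemokines, 7 fell, against 5.78% of all genes. Among them was Ccr9, the chemokine receptor for small intestinal homing, at 81.0, 79.4 and 77.0 in G cells, against 174.4, 221.8 and 162.3 in NEG cells (at least 1.54-fold lower, adjusted p = 0.000116). The 7 also hold the chemokine gene Ccl9, which was not dim in G (log2 -0.93 ± 0.14, adjusted p = 0.000796). Ccl9 read 237.3, 207.4 and 540.0 in RG cells, against 652.7, 311.3 and 866.8 in R cells.

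Other blood cell lists were thinner, and their counts stand against 5.78% of all genes lower. Of 11 B and plasma cell genes 3 were tested and these 3 fell, with a median of -1.05 (-0.69 with the dim gene at its bound), among them Jchain, which joins antibody multimers, at 85.2, 88.1 and 88.1 in G cells, against 175.5, 160.4 and 207.9 in NEG cells (at least 1.51-fold lower, adjusted p = 0.000338). Cd79a did not pass the filter. Of 8 myeloid genes 5 fell, among them Clec10a, a lectin of macrophages and dendritic cells, at least 8.02-fold lower from 69.8, 71.5 and 74.1 in G cells, against 859.2, 1488.5 and 688.2 in NEG cells (adjusted p = 1.04e-07). Lyz2, also among the 5, was not dim in G, at 345.7, 802.8 and 810.5, against 843.3, 2694.4 and 2020.4 in NEG cells. Unlike Clec10a it was bright in the red gates, at 375.3, 1013.1 and 1895.1 in RG cells and 1262.4, 2016.8 and 1353.8 in R cells. Of 5 mast cell and eosinophil genes 3 fell, with Mcpt1, a mucosal mast cell protease, at 73.0, 125.3 and 93.5 in G cells, against 517.2, 568.5 and 221.6 in NEG cells (at least 3.31-fold lower, adjusted p = 8e-05). The 1 tested member of the erythroid and platelet list, Hba-a1, was dim in G, at 79.1, 76.7 and 73.4 in G cells, against 146.2, 510.1 and 403.1 in NEG cells (at least 2.6-fold lower, adjusted p = 0.000404). Of 6 genes of stroma, muscle and endothelium, 1 was called, Esam, which was higher in G (log2 0.57 ± 0.15, adjusted p = 0.0486) and was lost without mouse 2 or without mouse 3. The glial and neuronal list had 1 tested member, with a median of -0.06 and no call by limma.

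Lists of genes that lymphocytes share with other cells were lower in G in part. Their counts stand against 5.78% of all genes lower. Of 8 genes of the Gimap family, GTPases of lymphocytes, 6 fell, and the list median was -1.41, or -1.20 once dim genes are set to their bounds. Of 5 MHC class II genes 4 fell, with a median of -1.10. H2-Aa, an MHC class II alpha chain, read 104.9, 113.1 and 182.0 in G cells, against 272.7, 464.9 and 457.1 in NEG cells (log2 -1.58 ± 0.16, adjusted p = 3.93e-05), and Cd74, the invariant chain, read 192.3, 238.0 and 269.6 in G cells, against 489.0, 420.4 and 590.2 in NEG cells (log2 -1.10 ± 0.14, adjusted p = 0.000344). Of 13 interferon response genes 3 fell (Nlrc5, Gbp2 and Psmb9), with a median of -0.30. Nlrc5, a transactivator of MHC class I genes, read 73.3, 75.9 and 84.6 in G cells, against 345.2, 377.7 and 290.1 in NEG cells, at least 2.81-fold lower in G (adjusted p = 1.58e-06). The calls of Gbp2 and Psmb9 were lost without mouse 2 or without mouse 3. With the 12 BRAF arrays, 1 of the 5 MHC class II genes fell. Beside these counts, and those for Dtx1, Mfng and the epithelial lists above, stands the summed intensity of the 52 leukocyte genes, 10394 to 12246 in G cells, against 39266 to 55989 in NEG cells. The part of the leukocyte genes in the other lists' counts was not tested.

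Genes of tissue repair were lower in G in part. Of 9 genes of the crypt repair and YAP response 4 fell (Emp1, Anxa3, S100a6 and Anxa2) and 0 rose, against 5.78% of all genes lower, with a median of -0.44. Emp1, an epithelial membrane protein, read 457.4, 1638.0 and 597.6 in G cells, against 1292.3, 2963.7 and 860.3 in NEG cells (log2 -0.96 ± 0.17, adjusted p = 0.00426), and S100a6, a calcium-binding protein, read 1723.5, 1908.0 and 1531.7 in G cells, against 2493.7, 2996.0 and 2078.4 in NEG cells (log2 -0.54 ± 0.13, adjusted p = 0.0276). Mouse 2 read highest for Emp1 in both gates, so the Emp1 groups overlapped, and each of the 4 calls was lost without mouse 2. The Anxa3 call was lost without mouse 3 as well, and those of S100a6 and Anxa2 without any 1 mouse. In the fit without the mouse block, and with the 12 BRAF arrays, 0 of the 9 were called by limma; the 6-array fit with the mouse block gave 4 at an unadjusted p under 0.05. Of 12 immediate-early and dissociation stress genes 1 fell, a share near the 5.78% of all genes. It was Dusp1, a phosphatase induced by stress, at 531.9, 382.3 and 492.2 in G cells, against 769.7, 1091.1 and 2540.3 in NEG cells (log2 -1.47 ± 0.25, adjusted p = 0.00283). Its NEG cells of mouse 3 stood far above the other arrays, and the call was lost without mouse 2.

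**Figure D4:**
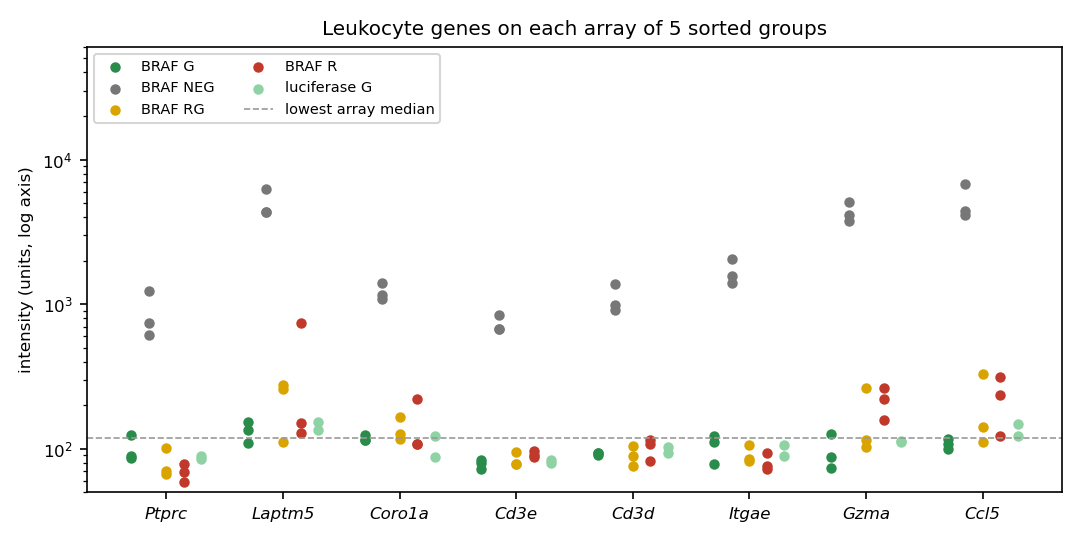
Intensity (y axis, log scale, arbitrary units) of 8 leukocyte genes on each array of the BRAF G, BRAF NEG, BRAF RG, BRAF R and luciferase G groups, one point per array, with the lowest array median as a dashed line. The 3 BRAF NEG arrays stand above the arrays of the other 4 groups in each gene. For Ccl5 they read 4112.4 to 6732.7 units, and BRAF G arrays read 99.3 to 117.3.

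The bases just upstream of leukocyte genes are shown for 4 members of the lists that were lower in G, picked after their values were seen. The windows are the 250 bases before the RefSeq start of the gene in assembly GRCm38.p6, read 5′ to 3′ on the strand of the gene. Capitals mark matches to the RUNX motif TGTGGT or its reverse complement ACCACA (a family of transcription factors of T cells) and to the TCF/LEF motif CTTTGA or TCAAAG (the nuclear factors of Wnt signalling, with TCF1 and LEF1 also active in T cells). The windows are Gzma at chr13:113100982-113101231 on the minus strand, Gzmb at chr14:56262335-56262584 on the minus strand, Nkg7 at chr7:43436888-43437137 on the plus strand and Cd3d at chr9:44981536-44981785 on the plus strand. Each of these 4 holds a match, whereas the windows of Cd3e and Laptm5, for example, hold neither motif.
Gzma: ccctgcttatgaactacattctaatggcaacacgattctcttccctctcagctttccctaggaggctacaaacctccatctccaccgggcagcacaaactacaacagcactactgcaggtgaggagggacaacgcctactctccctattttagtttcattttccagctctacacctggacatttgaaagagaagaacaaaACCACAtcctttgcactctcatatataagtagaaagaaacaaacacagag
Gzmb: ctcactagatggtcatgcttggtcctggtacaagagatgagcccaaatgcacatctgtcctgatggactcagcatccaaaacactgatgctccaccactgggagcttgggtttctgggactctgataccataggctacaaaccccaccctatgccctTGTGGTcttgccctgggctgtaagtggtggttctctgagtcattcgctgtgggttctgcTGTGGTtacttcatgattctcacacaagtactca
Nkg7: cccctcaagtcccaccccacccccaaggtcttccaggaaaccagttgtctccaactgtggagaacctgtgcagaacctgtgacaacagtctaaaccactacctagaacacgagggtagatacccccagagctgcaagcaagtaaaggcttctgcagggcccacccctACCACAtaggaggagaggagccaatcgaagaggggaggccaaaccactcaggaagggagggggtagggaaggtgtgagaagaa
Cd3d: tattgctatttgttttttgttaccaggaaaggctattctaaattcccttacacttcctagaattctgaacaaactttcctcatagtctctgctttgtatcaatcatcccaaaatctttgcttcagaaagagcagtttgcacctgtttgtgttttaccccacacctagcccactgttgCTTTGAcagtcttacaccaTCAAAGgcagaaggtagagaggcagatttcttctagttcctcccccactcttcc

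Gzma and Cd3d are described above. Gzmb, granzyme B, read 77.1, 71.1 and 81.7 in G cells, against 251.4, 419.7 and 263.7 in NEG cells (at least 2.53-fold lower, adjusted p = 1.25e-05), and Nkg7, a cytotoxic granule protein, read 85.0, 75.7 and 77.0 in G cells, against 645.6, 905.3 and 542.6 in NEG cells (at least 5.7-fold lower, adjusted p = 1.22e-07). Of the 44 leukocyte genes that fell, 28 had a window in the RefSeq table, with 37 windows between them. The RUNX motif was in 12 of the 37 windows (32.4%), against 10.9% of the windows of all genes tested. The TCF/LEF motif was in 8 of 37 (21.6%), against 10.8% of the windows of all genes tested. Windows of 1 gene can overlap, and each window was counted on its own. Of the 5 called stem cell and Wnt genes, 3 had a window, with 4 windows in all, of which 0 held either motif. Windows of that set with a TCF/LEF motif were the ones planned for display, and the leukocyte windows took their place. A match is a string of letters and was not tested for binding.

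The same reporter contrast could be read in red-high cells of the same 3 mice, as RG minus R. The difference between the 2 contrasts, (G minus NEG) minus (RG minus R), was called for 148 of the 9365 genes (1.58%), of which 145 (1.55%) were more negative in the red-low cells and 3 (0.032%) more positive. Of the 145, 139 were among the 541 genes lower in G than in NEG. Without mouse 2 the count was 81 and without mouse 3 it was 65. For RG against R alone, fitted over the 3 mice on those 6 arrays, 0 genes (0.0%) were called by limma. There 947 were higher and 739 lower in RG at an unadjusted p under 0.05. The RG minus R values below are therefore descriptions, none of which passed the test.

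Leukocyte genes were 37 of the 148 genes called in the test of the difference. Of the 44 that fell in G against NEG, these 37 were called. The 44 were chosen on the G and NEG arrays that also enter this test, so this count and the medians below are descriptions. The median of the 44 was -2.21 for G minus NEG (-1.69 with dim genes at their bound) and -0.03 for RG minus R. Cd3e read 78.9, 78.5 and 95.7 in RG cells, against 91.3, 96.0 and 88.4 in R cells, below the array medians in both. Ccl5 read 141.7, 111.2 and 328.5 in RG cells, against 316.3, 122.9 and 235.7 in R cells, overlapping between the red gates and far under NEG. As both genes are dim in G, their fitted contrast values are no exact sizes, at -3.08 (adjusted p = 1.2e-05) for Cd3e and -5.25 (adjusted p = 0.000159) for Ccl5. Genes outside these lists were called too, among them Hba-a1, also dim in G (-2.07, adjusted p = 0.0402) and Dtx1, Mfng and Nlrc5. Over the 52 genes of the 3 lists the summed intensity was 10957 to 12419 in RG cells, against 12321 to 15650 in R cells, with 13317 to 13556 in G cells and 12967 to 13341 in RG cells of the luciferase line. The sums of NEG cells, 39266 to 55989, thus stood above those of each other gate measured.

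Differentiated epithelial genes were not among those called in the test of the difference. Of the 38 Paneth, goblet, enteroendocrine and enterocyte genes that fell in G against NEG, 0 differed between the contrasts by limma, and 1 had an unadjusted p under 0.05, against 9.92% of all genes. The SE of this difference was wide for some of them, at 1.09 for Defa22 and 0.69 for Chga, against 0.21 for Clca1. The absence of calls therefore does not show that the contrasts were equal. For RG minus R the means of all 38 lay below 0, with 30 at an unadjusted p under 0.05 and 0 past the adjusted threshold by limma. Their median was -1.19 for G minus NEG and -1.04 for RG minus R. Zg16 read 3212.6, 4082.2 and 6872.1 in RG cells, against 8791.8, 8062.4 and 10954.3 in R cells, and its difference was -1.51 for G minus NEG and -1.04 for RG minus R. The stem cell list had a median of 0.41 for G minus NEG and 0.51 for RG minus R. Igfbp4 read 715.4, 534.6 and 351.6 in RG cells, against 97.4, 267.1 and 166.1 in R cells. Its difference was 0.71 for G minus NEG and 1.65 for RG minus R, and the difference between the contrasts did not pass (adjusted p = 0.476). Replication genes had a median of 0.30 for G minus NEG and 0.76 for RG minus R, and 0 of 19 were called in the test of the difference by limma, with 10 at an unadjusted p under 0.05, against 9.92% of all genes.

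**Figure D5:**
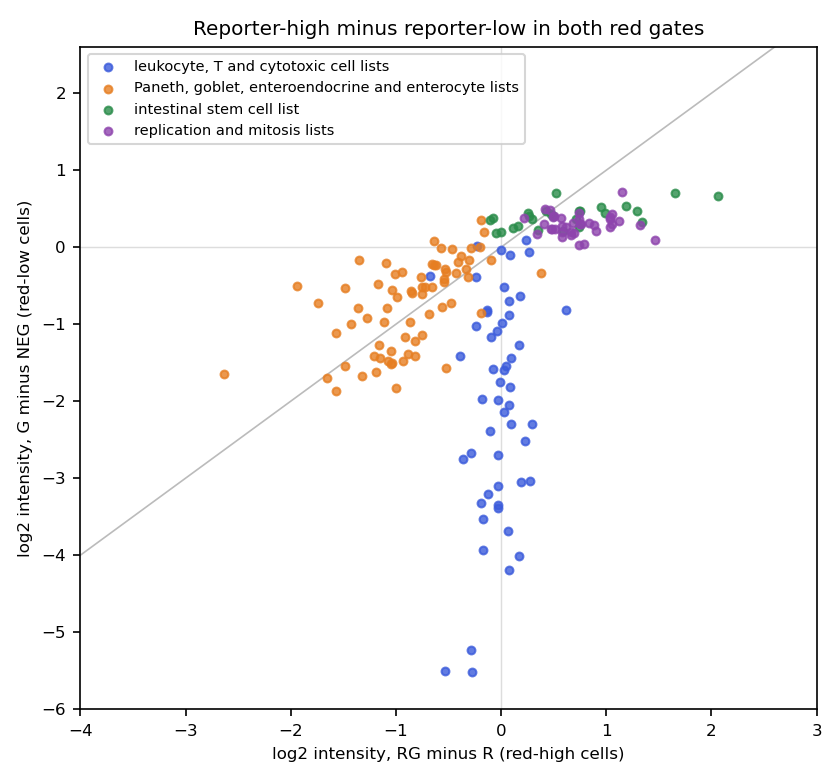
Log2 intensity difference between reporter-high and reporter-low cells among red-low cells (y axis, G minus NEG) and among red-high cells (x axis, RG minus R), one point per gene, with the line of equal differences. The leukocyte, T cell and cytotoxic genes run down the y axis near 0 on the x axis. The Paneth, goblet, enteroendocrine and enterocyte genes lie mostly below 0 on both axes, and the stem cell, replication and mitosis genes mostly above 0 on both.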

How the data were processed

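RNA of sorted crypt cells was hybridised to 16 Illumina arrays, of which 6 enter the main comparison. The authors deposited linear intensity values for 25697 probes, made with GenomeStudio per the submitters' processing notes, which give no version. From the values, the intensities (55.7 to 40121.2) were quantile-normalized together, since the sorted values of the arrays agree within 1.2, and background appears not to have been subtracted, so differences of dim genes are understated. A second table of 32 columns (signals and detection p-values) has running numbers that match no label and was not used. Precision is limited by the number of arrays.

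Probes were named through the platform annotation: 23978 had 1 gene symbol, 0 several and 1719 none, and 23962 matched a RefSeq gene table (GRCm38.p6) by Entrez identifier, with 0 symbols changed. Of 13161 named probes above the array median on at least 2 of 6 arrays, the brightest per gene was kept, for 9365 genes, 2562 of which had several. Log2 values were fitted with limma 3.58.1 in R 4.3.3 (lmFit, eBayes) with mouse as a block (2 residual and 9.79 prior degrees of freedom) and Benjamini-Hochberg adjustment over all genes. The test of (G minus NEG) minus (RG minus R) used the 12 BRAF arrays with the same block. The labels name the mouse of each array, which pairs the gates. Deviations of G and NEG arrays from their group means correlated within mice at 0.423, 0.303 and 0.415, across genes, which are not independent replicates. Pearson's r across the genes was 0.981 to 0.985 between G arrays, 0.974 to 0.981 between NEG arrays and 0.954 to 0.974 between gates. On data simulated for G against NEG on 9365 genes, the fit recovered 100% of the genes changed by log2 1 and 100% of those changed by log2 2, with 8.68% false calls. For the test of the difference it recovered 58% and 99%. Neither chips nor scan days could be tested as batches, as the labels give none.

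The named genes were the 10 highest and 10 lowest called with 3 of 3 mice in 1 direction, up to 5 called genes per list, a set of marker genes, and up to 10 with the largest difference between the contrasts. Cd8b1, Dpp4, Dusp6, Gzmb, Neurog3, Nkg7 and Rfx6 were named after their values were seen. The members and lists were chosen with earlier results of these data known. Alternatives changed the block, the arrays fitted, the filter, the background, the normalization, the probe rule, the array weights and the mice.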

Additional observations from a re-analysis of the deposited data

Results flagged for a closer look

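For 35 named genes the difference between reporter-high and reporter-low cells was another one in red-low cells than in red-high cells of the same 3 mice, by limma's test of the difference (adjusted p under 0.05). The values below are (G minus NEG) minus (RG minus R) on the log2 scale, and those of genes dim in G cells depend on signal near the array median. Of the 35, 31 were dim in G cells, so their fitted values are no exact sizes and have no order. Each value was negative: all 35 genes were lower in G than in NEG, while RG minus R lay above 0 for 16 of them and below 0 for 19, with 0 called for RG against R by limma (947 higher and 739 lower of all genes at an unadjusted p under 0.05).

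Chemokines, granule proteins and their regulators gave -5.52 for Rgs1, -5.25 for Ccl5, -4.98 for Gzma, -4.26 for Ccl4 and -3.75 for Xcl1. Membrane and signalling proteins of blood cells gave -4.94 for Laptm5, -3.96 for Lat2, -3.77 for Tyrobp, -3.64 for Cd200r2, -3.32 for Coro1a, -3.24 for Ptprc, -3.14 for Cd53 and -2.39 for Cd52. T cell genes gave -4.18 for Itgae, -3.36 for Cd3d, -3.36 for Cd3g, -3.08 for Cd3e, -2.39 for Cd27, -1.88 for Cxcr6, -1.79 for Cd69 and -1.05 for Ccr9. The Gimap genes gave -3.43 for Gimap4, -3.40 for Gimap3, -2.96 for Gimap7 and -1.84 for Gimap6.

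Myeloid genes gave -3.67 for Clec10a, -1.63 for Aif1 and -1.54 for Itgax, the B and plasma cell genes -1.54 for Pou2af1 and -1.02 for Jchain, the mast cell gene Mcpt2 -1.08 and the haemoglobin gene Hba-a1 -2.07. Of genes from signalling lists, the values were -2.45 for Nlrc5, -1.89 for Dtx1 and -1.28 for Mfng. Of the 44 core leukocyte genes that fell in G against NEG, 37 are among the 148 genes called in this test. That count is a description, as the 44 were chosen on G and NEG arrays that enter the test. What sets the NEG gate apart in these genes was not tested.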

How the results depend on the processing

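The number of genes called in G against NEG (616, of which 75 higher and 541 lower) depended most on how the shared mice and the other arrays entered the fit. Without the replicate block it was 337 (10 higher and 327 lower), with the 12 BRAF arrays and the mouse as a replicate block 309 (10 and 299), and with all 16 arrays and no replicate block 248 (3 and 245). These calls were subsets of the 616, with 10, 10 and 3 of the 75 higher and 327, 299 and 245 of the 541 lower kept. Above the array median on all 6 arrays, where fewer genes are tested, 325 were called, 262 of them lower. The higher calls numbered 44 with 50 units subtracted and 31 after cyclic loess, for which the cause was not tested. Leaving out 1 mouse gave 356 to 615 genes, with 12 to 58 higher and 332 to 557 lower, and 65 to 113 in the test of the difference between the contrasts, against 148. There the fit with no replicate block gave 119. The random block, no filter, the mean of probes and array weights kept the counts within 1.5 times. The median of all genes ran from -0.02 to 0.06.

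Of the results for named genes under these alternatives, 1174 kept direction and call, 224 kept the direction and lost the call, and 9 turned sign, all of genes that had not been called. Cd8a was -0.061 after cyclic loess and -0.11 to 0.16 with 1 mouse left out, with -0.003 without mouse 3. Cdh1 was -0.038 after cyclic loess, -0.0036 with array weights and -0.067 to 0.19 with 1 mouse left out, with -0.06 without mouse 3. Dll1 was -0.050 to 0.028 and Efnb1 -0.30 to 0.14 with 1 mouse left out. With 50 units subtracted, the median of the Gimap list was -1.94, against -1.41 as reported, and 32 of 198 list medians moved by more than their spread between mice under some setting. Signal near the array median limits what can be read of 231 of the 541 lower genes, which were dim in G cells.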

Other observations

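Further gene families, picked after their values were seen and so given without support from their counts, also differed between G and NEG cells. Of 5 tested Reg lectins, secreted antimicrobial proteins of the gut, 4 were called lower in G, with a median log2 difference of -1.03, among them Reg3b (-1.17 ± 0.20) and Reg3g (-0.98 ± 0.16, SE, n = 3 mice each). Of 4 alpha-class glutathione S-transferases, detoxifying enzymes of enterocytes, 3 were lower, with Gsta1 at -1.30 ± 0.14 and Gsta2 at -1.43 ± 0.16, while Gsta3 read 0.00 ± 0.13. Both guanylin genes were lower (Guca2a -1.22 ± 0.13 and Guca2b -1.08 ± 0.13), and their receptor gene Gucy2c read 0.07 ± 0.13. Of 3 bile acid carriers, 3 were lower, among them Slc51a (-0.76 ± 0.14), and Fabp6 differed most between mice (-1.95 ± 0.37). The Fabp6 call was lost without mouse 2 or without mouse 3. With the 12 BRAF arrays fitted together, 3 of the transferases, 1 of the guanylin genes, 0 of the Reg lectins and 0 of the bile acid carriers were called lower. Over all genes, 5.78% were lower in the main fit and 3.19% in that one.

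The carbonic anhydrases split. Car12 was higher in G (0.78 ± 0.13), Car4 was lower (-1.19 ± 0.20), Car2, dim in G, was at least 3.52-fold lower, and Car13 and Car9 did not pass. The Car4 groups overlapped, and its call was lost without the mouse block and with all 16 arrays. Of 12 MHC class I genes 6 were lower, against 5.78% of all genes, with a family median of -0.56 and H2-Q8 at -0.94 ± 0.13. In the fit without the mouse block, and with the 12 BRAF arrays fitted together, only 1 of these genes, H2-Q8, was called lower. Members of this family are alike in sequence, so their probes may read several of them. All 3 tested haemoglobin genes were called lower in G, against 5.78% of all genes, and all 3 were dim there. Their summed intensities were 309, 280 and 273 in G cells, against 476, 1316 and 1048 in NEG cells. The mice thus differed more among NEG arrays than among G arrays. The Hbb-bt call was lost without mouse 2, and that of Hbb-b2 without mouse 2 or without mouse 3.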
